A study of Mus musculus with 2 samples.

Results

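The genes that set and carry out the transcriptional response to low oxygen were examined in mouse B cells labelled as lacking or carrying miR-155. The group was defined by name and comprised 9 genes of the 18193 with a singly named probe set on the array. These were the hypoxia-inducible factor (HIF) subunit genes Hif1a and Arnt, the prolyl hydroxylase genes Egln1, Egln2 and Egln3, the asparaginyl hydroxylase gene Hif1an, the ubiquitin ligase gene Vhl, and the HIF target genes Ankrd37 and Vegfa. Every probe set whose annotation named only one of them was taken, which gave 22 of 34945, and 19 of the 22 had a mean log2 intensity of at least 6.71, the middle value over the array's probe sets without its controls. Each of the 9 genes kept at least 1 probe set at this level, and such sets are called expressed. Of all 34945 singly named sets 19171 were expressed.

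RNA was hybridised to Affymetrix 3′ expression arrays, with 1 array labelled mir155 KO and 1 labelled mir155 WT, from male mice of the C57 background (Jackson Laboratory). Cells of both arrays received cycloheximide, a blocker of translation elongation, at 100 ug/ml for 8 min before harvest. The design text names cultured and activated B cells, whereas the growth protocol describes progenitors kept with G-CSF and SCF for 6 days. Of 9 measured B cell markers all 9 were expressed, against 2 of 9 markers of neutrophils and their precursors, 8 of 11 of macrophages and monocytes, 4 of 8 of dendritic cells and 5 of 7 of T cells. Of all 18193 genes 10717 were expressed by the same level, so these counts alone do not tell which cells were present. The source names give each array the opposite genotype. The host transcript Mir155hg stood at 10.88 on the KO-labelled array and at 6.63 on the WT-labelled array, which goes against the title and genotype entry, and whether its probes fall inside the deletion was not determined here. Arrays are therefore called KO-labelled and WT-labelled, every difference is the log2 value of the KO-labelled array minus that of the other, and each sign turns over if the source names are right. With 1 array per label no difference was tested against replicate spread.

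The microRNA that was deleted is processed from Mir155hg on chromosome 16, and its mature guide strand lies at chr16:84714143-84714165 on the plus strand (GRCm38.p6, sequence from RefSeq). It is shown because the genotypes differ in it, with the seed, bases 2 to 8, in capitals.
mmu-miR-155-5p: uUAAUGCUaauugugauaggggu

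HIF is a pair of basic helix-loop-helix PAS proteins, an alpha subunit that is destroyed when oxygen is present and a beta subunit that is stable. EGLN enzymes use oxygen to hydroxylate prolines of the alpha subunit, which lets the VHL protein bind it and mark it for the proteasome, and HIF1AN hydroxylates an asparagine, which blocks binding of coactivators. When oxygen falls the alpha subunit persists, binds hypoxia response elements and induces genes of glycolysis, blood vessel growth and its own hydroxylases. In B cells HIF-1 is active in the hypoxic germinal centre light zone and during metabolic activation. Most of this control acts on protein stability, which an RNA array does not measure.

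Among the 9 genes, Egln3, Hif1a and Egln1 were lower on the KO-labelled array with every one of their probe sets, Ankrd37 was higher, and the remaining 5 lay near 0 or on both sides of it. Represented by the probe set with the highest mean level, 3 members were lower and 6 higher, against 42.1% lower and 56.9% higher among the 10717 expressed genes, and the median of the 9 was 0.08 against 0.03 over all expressed genes. This split is loose, since Egln2 counts as higher at 0.0013: averaging each gene's sets it was 4 lower and 5 higher with a median of 0.0013 against 0.032 over all genes, and with a loess curve subtracted 4 and 5 with a median of 0.0284 against -0.0087. Egln3 was the only member past 0.5 in either direction, and 1.31% of expressed genes were lower and 0.681% higher by that much. No member reached 2-fold, as did 0.14% of expressed genes on the lower side and 0.0187% on the higher side. To judge the size of these values, the differences given by the 2 brightest expressed probe sets were compared within each of 4906 genes, where the gap had a median of 0.084 and a 95th percentile of 0.31. Past 0.31, 2 members were lower (Egln3 and Hif1a) and 1 was higher (Ankrd37), against 4.27% and 4.26% of expressed genes. With plain _at probe sets only, Hif1a was at -0.3028, inside the yardstick, and 1 member was lower past it. This technical yardstick covers disagreement between probes of 1 RNA and not the spread between animals or cultures.

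**Figure D1:**
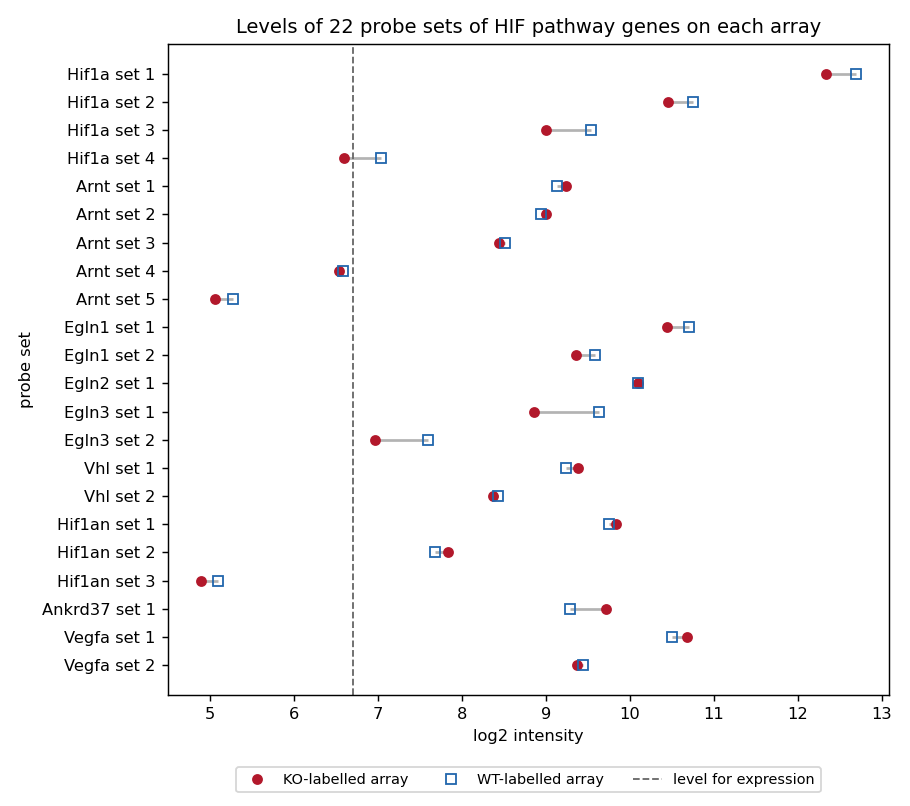
Log2 intensity (x axis) of each of the 22 probe sets (rows) on the KO-labelled array (filled circles) and the WT-labelled array (open squares), numbered within a gene by falling mean level, with the level for expression (6.71) dashed. The 4 Hif1a, 2 Egln1 and 2 Egln3 sets lie lower on the KO-labelled array, and the single Ankrd37 set lies higher.

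Hif1a encodes HIF-1 alpha, the oxygen-regulated subunit, and spans chr12:73901324-73947554 on GRCm38.p6, the build of all coordinates given here. Its transcript has been reported as a miR-155 target in human cells. It was read by 4 probe sets, all expressed. The brightest stood at 12.34 on the KO-labelled array and 12.69 on the WT-labelled array, a difference of -0.35 or 0.782 times the level. The next had 10.45 on the KO-labelled and 10.75 on the WT-labelled array, a difference of -0.30. All its sets were thus lower on the KO-labelled array, by amounts that differed by 0.23 between sets. The third by level had 9.01 on the KO-labelled array and 9.54 on the WT-labelled array (-0.53), and the dimmest had 6.60 on the KO-labelled and 7.04 on the WT-labelled array (-0.44), with its level on the KO-labelled array under the level for expression. That set passed the filter only through the WT-labelled array, so it is not taken as support for a lower level. Of the 4906 genes with several expressed sets, 91 (1.85%) had every set at or below -0.30, a count made after the Hif1a values were seen. The gene ranked 332nd lowest of 10717.

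Because the lowest members include Hif1a, Egln1 and Egln3, the 250 bases before their starts are shown, and later those before that of Ankrd37, the highest (RefSeq sequences, in which all 9 genes were matched). Capitals mark the HIF core motif, searched as ACGTG and GCGTG on both strands. At least 1 match was present in 38.6% of all 32851 promoter windows of this length, with 16.6% for ACGTG and 28.2% for GCGTG, and in 8 of the 11 windows of the 9 genes. The matched Vegfa window belongs to a start 7214 bases inside the outermost one, and the window at that outermost start held no match. An Egln2 window among the 8 likewise belongs to a start 1074 bases inside the gene. The Hif1a window, chr12:73907617-73907866 on the plus strand, belongs to a start that lies 6543 bases inside the outermost annotated start of the gene. Matches begin 135, 134 and 70 bases before that start, the first pair being both strands of a CACGTG palindrome, which is also the E-box bound by other helix-loop-helix factors and is present in 6.02% of windows.
Hif1a: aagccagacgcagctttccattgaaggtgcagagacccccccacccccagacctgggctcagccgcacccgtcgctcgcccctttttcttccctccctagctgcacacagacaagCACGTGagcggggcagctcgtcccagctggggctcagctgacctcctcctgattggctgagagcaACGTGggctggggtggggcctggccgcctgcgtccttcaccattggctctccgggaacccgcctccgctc

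Arnt (chr3:95434367-95497240) encodes HIF-1 beta, the constitutive partner that is also shared with the aryl hydrocarbon receptor. Of its 5 probe sets 3 were expressed, and they lay on both sides of 0. The brightest had 9.25 on the KO-labelled array and 9.14 on the WT-labelled array (0.11). The second had 9.01 on the KO-labelled and 8.94 on the WT-labelled array (0.06), with a suffix (_s_at) that marks probes shared between transcripts of different genes, and the third had 8.44 on the KO-labelled and 8.52 on the WT-labelled array (-0.08). These differences are about as large as the median disagreement between probe sets of a gene, so no direction is given for Arnt. The sets below the level for expression had 6.54 on the KO-labelled array and 6.59 on the WT-labelled array (-0.04), and 5.06 on the KO-labelled and 5.28 on the WT-labelled array (-0.22). With no direction given for Arnt, the alpha and beta subunit genes are not compared in direction.

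The EGLN hydroxylases gave a range of values. Egln3 (chr12:54178981-54203874) encodes PHD3, a prolyl hydroxylase whose transcript is strongly induced by HIF, and was the lowest member. Its brighter probe set had 8.86 on the KO-labelled array and 9.64 on the WT-labelled array, a difference of -0.77 or 0.584 times the level. The other had 6.97 on the KO-labelled and 7.60 on the WT-labelled array (-0.63). Both sets were lower on the KO-labelled array and above the level for expression on each array. Egln3 ranked 39th lowest of the 10717 expressed genes, and 13 of the 4906 genes with several expressed sets (0.265%) had every set at or below its smaller difference, counted after its values were seen. Its promoter window at chr12:54203875-54204124 on the minus strand directly precedes the outermost start of the gene and holds 1 match, 229 bases before it.
Egln3: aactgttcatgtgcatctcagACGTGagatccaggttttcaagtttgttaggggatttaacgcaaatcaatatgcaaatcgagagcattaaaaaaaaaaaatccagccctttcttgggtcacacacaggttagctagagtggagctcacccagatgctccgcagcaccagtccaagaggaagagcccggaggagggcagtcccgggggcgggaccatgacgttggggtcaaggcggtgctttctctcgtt

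Egln1 (chr8:124908587-124949254) encodes PHD2, the main prolyl hydroxylase that restrains HIF-1 alpha in oxygen and itself a HIF target. Its probe sets had 10.44 on the KO-labelled array and 10.70 on the WT-labelled array (-0.26), and 9.36 on the KO-labelled and 9.59 on the WT-labelled array (-0.23). The sets differed from each other by only 0.02, and both were lower on the KO-labelled array, as were both sets of 23.7% of the 2788 genes with 2 expressed sets. The difference, 0.837 times the level, stayed inside the 0.31 yardstick, and 3.42% of genes with several expressed sets had all of them lower by 0.2 or more. That limit of 0.2 was taken with the Egln1 values known. In its window, chr8:124949255-124949504 on the minus strand and next to the outermost start, the matches begin 126 (GCGTG) and 68 (ACGTG) bases before the start.
Egln1: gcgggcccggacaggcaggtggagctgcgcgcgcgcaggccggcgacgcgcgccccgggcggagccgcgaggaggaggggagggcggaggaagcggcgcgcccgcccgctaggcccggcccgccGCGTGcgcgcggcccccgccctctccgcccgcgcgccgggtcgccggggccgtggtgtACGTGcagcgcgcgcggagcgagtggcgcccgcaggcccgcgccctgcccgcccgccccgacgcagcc

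Egln2 (chr7:27158658-27166802) encodes PHD1, another prolyl hydroxylase. Its only probe set had 10.10 on each array, with a difference of 0.00, and no second set measured it. Hif1an (chr19:44562854-44576274) encodes FIH, which hydroxylates HIF-1 alpha on asparagine. Its expressed sets had 9.83 on the KO-labelled array and 9.75 on the WT-labelled array (0.08), and 7.84 on the KO-labelled and 7.68 on the WT-labelled array (0.16). Both were slightly higher on the KO-labelled array, while the set below the level for expression, with 4.90 on the KO-labelled and 5.10 on the WT-labelled array, was at -0.20. Of the hydroxylase genes, then, Egln3 and Egln1 were lower on the KO-labelled array and Egln2 and Hif1an were not. The Egln1 difference stayed inside the yardstick of probe set disagreement.

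Vhl (chr6:113623994-113631634) encodes the substrate receptor of the ubiquitin ligase that binds hydroxylated HIF-1 alpha. Its brighter set had 9.38 on the KO-labelled array and 9.24 on the WT-labelled array (0.14), and the other had 8.37 on the KO-labelled and 8.43 on the WT-labelled array (-0.06). The sets pointed in opposite directions, so none is given for the gene.

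The HIF target members that are not hydroxylases, Ankrd37 and Vegfa, were not lower with every probe set. Ankrd37 (chr8:45996908-46000414), an ankyrin repeat gene induced by HIF-1 in hypoxia, had 9.72 on the KO-labelled array and 9.28 on the WT-labelled array, a difference of 0.43 or 1.35 times the level. This was the highest difference of the 9 genes, and 155th highest of the 10717 expressed genes, but it rests on 1 probe set. Vegfa (chr17:46016993-46032377) encodes the growth factor that drives vessel formation. Its sets had 10.68 on the KO-labelled array and 10.50 on the WT-labelled array (0.18), and 9.37 on the KO-labelled and 9.44 on the WT-labelled array (-0.07), a disagreement of 0.25 that leaves no direction. Of the 4 members known as HIF targets (Egln1, Egln3, Ankrd37 and Vegfa), 2 were thus lower with every probe set, 1 was higher and 1 was split. Of the 2788 genes with 2 expressed sets 23.7% had both lower, and 56.9% of the 10717 expressed genes were higher. Of the lower members, Egln3 was past the yardstick of probe set disagreement, while Egln1 (-0.26) stayed inside it. The Ankrd37 window, chr8:45999851-46000100 on the minus strand, belongs to a start 564 bases inside the outermost one and therefore lies within the annotated gene. It holds matches that begin 241, 155, 152 and 6 bases before the start.
Ankrd37: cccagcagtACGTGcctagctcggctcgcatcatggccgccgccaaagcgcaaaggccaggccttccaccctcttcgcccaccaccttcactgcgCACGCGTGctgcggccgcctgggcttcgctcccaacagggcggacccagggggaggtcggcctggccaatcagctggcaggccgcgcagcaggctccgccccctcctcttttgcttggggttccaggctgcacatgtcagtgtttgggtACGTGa

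**Figure D2:**
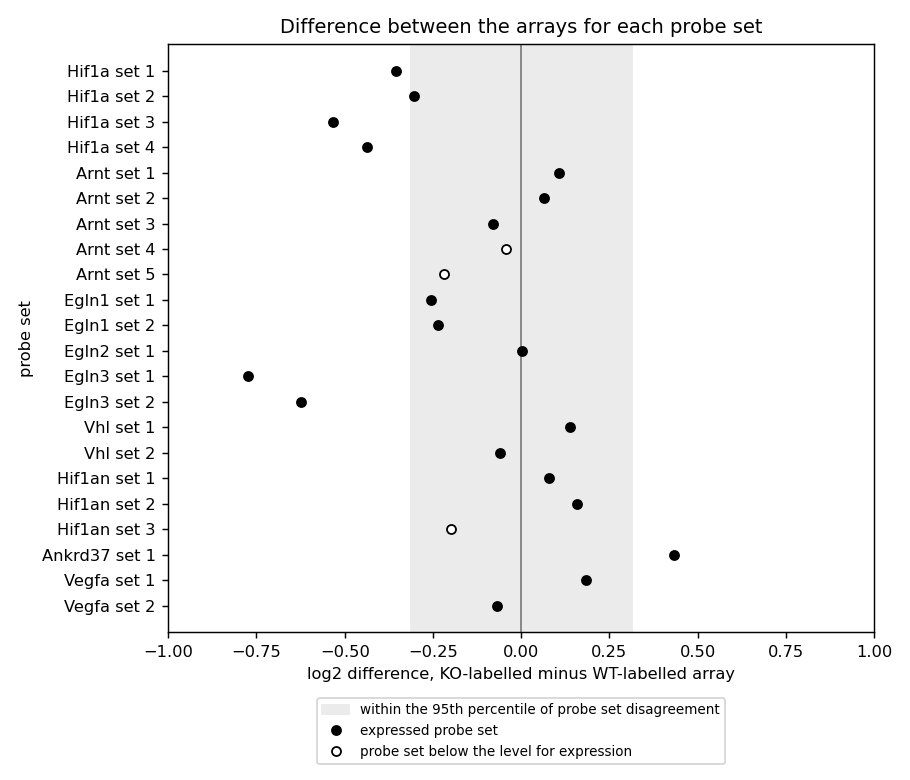
Log2 difference, KO-labelled minus WT-labelled (x axis), for each of the 22 probe sets (rows), filled where the set was expressed and open where it was not. The shaded band spans ±0.31, the 95th percentile of the disagreement between probe sets of a gene. Outside it lie 3 of 4 Hif1a sets, both Egln3 sets and the Ankrd37 set. Among these Hif1a sets is the dimmest, which passed the level for expression only through the WT-labelled array.

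Over the 19 expressed member probe sets, 11 were lower and 8 higher, against 40.2% lower among the 19171 expressed singly named sets. Both the 19 and the 11 include the dimmest Hif1a set, which passed the filter only through the WT-labelled array. The sets that the filter left out were lower as well, at -0.04 and -0.22 for Arnt and -0.20 for Hif1an. Of the 19, 3 were lower by 0.5 or more, namely both Egln3 sets and 1 of Hif1a, and 0 were higher by as much, against 1.15% and 0.782% of expressed sets. Sets of a gene share their transcript and are not independent. Among genes with 2 or more expressed sets, 60.7% had all of them in 1 direction. Of the 7 such members, Hif1a, Egln1, Egln3 and Hif1an did and Arnt, Vhl and Vegfa did not.

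**Figure D3:**
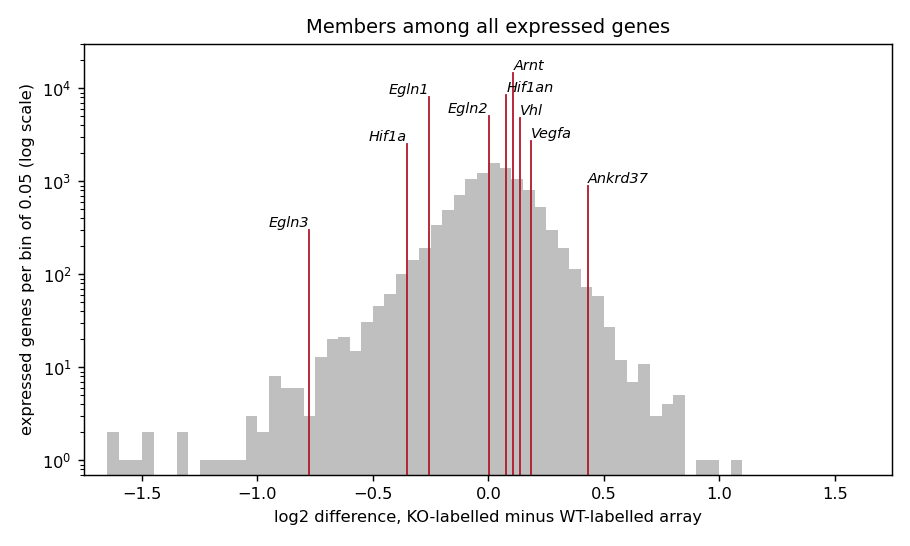
Number of expressed genes (y axis, log scale) by log2 difference, KO-labelled minus WT-labelled (x axis), in grey bins of 0.05, with red lines at the 9 members, whose heights only separate the names. Egln3 (-0.77) lies in the lower tail, Hif1a (-0.35) and Ankrd37 (0.43) on the shoulders, and the others nearer the centre; Mir155hg (4.25) lies beyond the axis.

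Genes that HIF is known to induce were then counted, leaving out the members and most glycolytic enzymes. This list was chosen with earlier results of these data known, so its counts describe the list only. Of 51 measured targets 42 were expressed, and 29 were lower and 13 higher on the KO-labelled array, against 42.1% lower over all expressed genes. Their median was -0.10 against 0.03. None of the 42 differed by 0.5 or more. Past the 0.31 yardstick 6 were lower, against 4.27% of expressed genes, and 3 were higher, against 4.26%. The lowest were Mxi1, a MYC antagonist, with 9.65 on the KO-labelled array and 10.07 on the WT-labelled array (-0.43), and Ndrg1, a stress-induced growth regulator, with 10.40 on the KO-labelled and 10.82 on the WT-labelled array (-0.42). Both Mxi1 sets and all 5 expressed Ndrg1 sets were lower, those of Ndrg1 lying between -0.52 and -0.40. Gbe1 (-0.39), a glycogen branching enzyme, Errfi1 (-0.38), an inhibitor of the EGF receptor, Bnip3 (-0.35), a mitophagy receptor, and Flt1 (-0.33), a VEGF receptor, were also beyond it and are named after their values were seen. The highest were Vldlr, a lipoprotein receptor, with 7.64 on the KO-labelled and 7.21 on the WT-labelled array (0.43), and Rora, an orphan nuclear receptor, with 7.11 on the KO-labelled and 6.78 on the WT-labelled array (0.33), and the transferrin receptor gene Tfrc (0.33), named after its value was seen, completed the 3. Several of these calls depended on the setting. With only plain _at probe sets Vldlr turned to -0.19, and with each gene's sets averaged Rora came to 0.0911 and Flt1 to -0.1661, all 3 then below the level for expression, and Errfi1 to -0.2973, while Tfrc came to 0.3119 after quantile normalization and 0.3005 after loess. With the mean of probe sets 5 targets were lower and 1 higher past the yardstick.

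**Figure D4:**
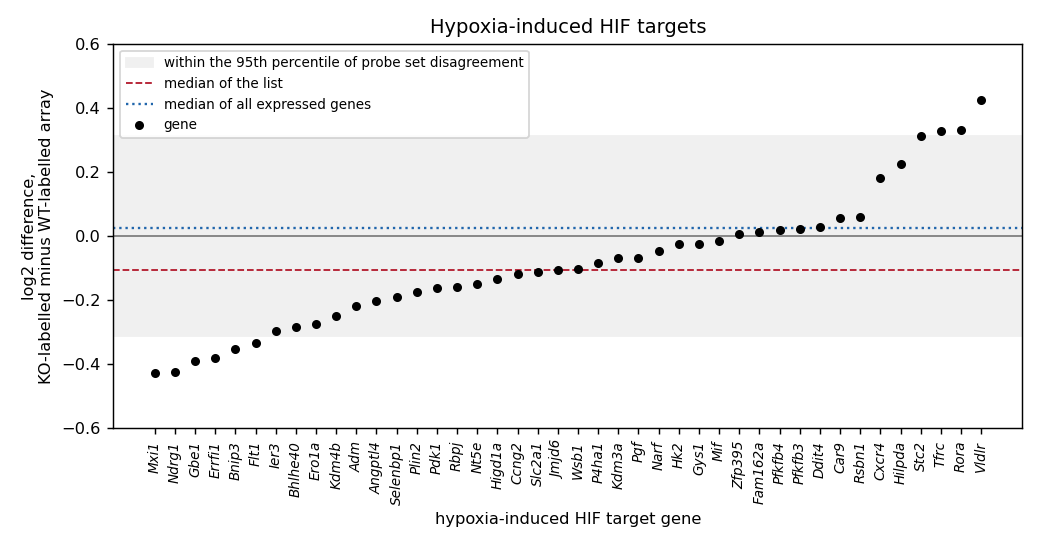
Log2 difference, KO-labelled minus WT-labelled (y axis), of the 42 expressed hypoxia-induced HIF targets (x axis, sorted), with the median of the list (-0.10, dashed) and of all expressed genes (0.03, dotted) and a band of ±0.31. Most points lie below 0, and 9 lie outside the band, 6 below and 3 above.

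The medians of the other pathway lists lay between -0.08 and 0.07. Over all expressed genes 42.1% were lower and 56.9% higher. Among other HIF subunits and bHLH-PAS partners 5 of 10 measured genes were expressed, and all 5 were lower with their brightest set, with a median of -0.08. All but Arntl lay within 0.084, the median disagreement between probe sets of a gene, so no direction is given for them. Epas1, which encodes HIF-2 alpha, was below the level for expression, with 5.82 on the KO-labelled array and 5.81 on the WT-labelled array. The lowest was the clock factor gene Arntl (-0.28), whose other expressed set was at 0.18, followed by Arntl2 (-0.08), and the highest were Hif3a (-0.04) and Sim1 (-0.06). Of 16 expressed genes of the VHL ubiquitin ligase and of HIF stability 4 were lower and 12 higher, with a median of 0.01. The ligase subunits Eloc (0.04), Elob (0.07), Cul2 (0.07) and Rbx1 (-0.01), named after their values were seen, all lay within the median disagreement of probe sets. Past 0.5 was Ube2d1, a ubiquitin-conjugating enzyme gene, with 8.87 on the KO-labelled array and 9.56 on the WT-labelled array (-0.68, 1 probe set), followed by the ubiquitin ligase gene Siah1a (-0.09), and the highest were Usp20 (0.19, a deubiquitinase that turned to -0.12 under an alternative) and Cul5 (0.17).

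Among coactivators and repressors 5 of 13 expressed genes were lower and 7 higher, with a median of 0.05. Cited2, which competes with HIF-1 alpha for the coactivators p300 and CBP and is itself induced by hypoxia, had 12.36 on the KO-labelled array and 12.77 on the WT-labelled array (-0.41), and its other set was at -0.37. Both were lower, while the p300 gene Ep300 stood at 0.05 (named after its value was seen) and the CBP gene Crebbp at -0.07, a sign that turned under an alternative. The highest were the chromatin genes Zmynd8 (0.27) and Kdm4c (0.23). Of the VEGF family and its receptors 3 of 6 expressed genes were lower and 3 higher, with Flt1 (-0.33) and Pgf (-0.07), which are also on the target list, lowest and Vegfb (0.29) and Flt4 (0.19, -0.02 under an alternative) highest. Several of these receptors are endothelial genes that lay near the level for expression here.

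Markers of macrophages and of dendritic cells were mostly lower along with Hif1a, Egln3 and the HIF targets, and those of neutrophils and T cells were near equal in sum. Of the 7 macrophage and monocyte markers at or above the level for expression on each array 5 were lower on the KO-labelled array. The other 2, Adgre1 (0.03) and Ccr2 (0.06), were slightly higher. Fcgr1, lower too, passed only through the WT-labelled array. The 11 measured summed to an intensity of 1698 on the KO-labelled array and 1978 on the WT-labelled array. The macrophage integrin gene Itgam (4.03 on the KO-labelled and 4.57 on the WT-labelled array) and Mrc1 (4.08 and 4.27 in that order) were below the level for expression. Of 4 expressed dendritic cell markers 3 were lower. The 8 measured summed to 5694 on the KO-labelled and 6888 on the WT-labelled array, mostly from Bst2, which is also interferon-induced, and without it to 2093 on the KO-labelled and 2439 on the WT-labelled array. The 9 measured neutrophil and precursor markers summed to 758 on the KO-labelled and 744 on the WT-labelled array, and 2 were expressed, both lower. The 7 T cell markers summed to 1358 on the KO-labelled and 1367 on the WT-labelled array, with 3 of 5 expressed lower. Of 9 B cell markers 8 were higher, with sums of 60431 on the KO-labelled and 56269 on the WT-labelled array. Fewer cells of a type and less RNA per cell cannot be told apart in such samples, and the part of these markers in the results was not tested. The 3′ minus 5′ values of the array's RNA quality controls were -0.07 on each array for Gapdh, and 0.23 on the KO-labelled and 0.22 on the WT-labelled array for Actb.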

How the data were processed

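Per the labels' protocols, total RNA was extracted with Trizol and biotinylated with an Affymetrix 3′ IVT kit. The deposited table holds log2 intensities of 45101 probe sets on 2 arrays, between 3.09 and 15.4, a unit read from the values. How the authors summarised and normalized them is not given in the sources used here. Value distributions of the arrays lay within 0.063 of each other at every rank, so a change in total RNA would not be visible.

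Probe sets were named from the platform annotation. A single gene was named for 34945 and several for 932, and 34741 of the former matched mouse RefSeq genes (GRCm38.p6) by Entrez number. A gene took its probe set with the highest mean level. Calls were differences of 0.5 or 2-fold, with no test and no p-value, since 1 array per label gives no replicate spread and limits the precision. The counting code was run on simulated shifts so large that every shifted gene had to be recovered. This checks the code only and does not show how well differences of the sizes given here are detected. All 9 members are named, with the 2 highest and 2 lowest expressed genes of each pathway list and any past 0.5. No gene was named for likeness of pattern, since 2 arrays give only a difference. The members and lists were chosen with earlier results of these data known. Alternatives are given in the closing section. Tables were handled in pandas 2.3.3 and NumPy 2.4.6 under Python 3.11.15, loess curves were fitted in statsmodels 0.14.6, and plots were drawn in matplotlib 3.10.9.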

Additional observations from a re-analysis of the deposited data

How the results depend on the processing

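Values were recomputed with each gene as the average over its probe sets, with plain _at sets only, after quantile normalization, after removal of a loess trend on level (span 0.3), with dim genes kept, and with genes under the 75th percentile of levels left out. Over these 6 settings and the reported one, Egln3 ranged from -0.83 to -0.70, Hif1a from -0.41 to -0.30 (inside the 0.31 yardstick with plain sets only), Egln1 from -0.30 to -0.25 and Ankrd37 from 0.38 to 0.43. With the mean of the probe sets Arnt was -0.0339, Vhl 0.0385, Vegfa 0.0579, the VEGF list median -0.0304 and the T cell marker median 0.0478, and 45 genes were higher by 0.5. With plain sets the VEGF median was -0.0359. Egln2 lay between -0.05 and 0.00. Without a filter 252 genes were lower by 0.5 and the dendritic cell marker median was -0.13. With the stricter filter 85 were lower and 24 higher by 0.5, 9 lower and 1 higher by 2-fold, and the macrophage marker median was -0.39. The split of 140 lower and 73 higher became 167 and 52 after quantile normalization and 172 and 53 after loess. Over the settings 64.7% to 81.0% of the HIF targets kept were lower, against 36.9% to 52.6% of all genes kept. These ranges are not paired by setting. After loess it was 81.0% against 52.6%, with the stricter filter 76.9% against 36.9%, and with dim genes kept 64.7% against 49.7%. The cause of these shifts was not tested. No paired analysis was possible because each label has 1 array, so no array could be left out either.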
